A study of Mus musculus with 15 samples.

Results

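The genes described here are 10 genes of T cells and natural killer (NK) cells: Thy1, the T cell receptor genes Cd3d, Cd3e and Cd3g, the co-receptor genes Cd4 and Cd8a, the kinase gene Lck, the cytotoxic granule genes Gzma and Prf1, and the cytokine receptor gene Il2rb. They were chosen as a list of known lymphocyte genes, and each was read through every probeset whose only annotated symbol was that gene. Of the 10, 9 were measured, through 97 of the 229581 probesets on the array. Lck had 0 such probesets and was not measured here. In the gene table Thy1 and the Cd3 genes lie on chromosome 9, Cd4 and Cd8a on 6, Lck on 4, Gzma on 13, Prf1 on 10 and Il2rb on 15. All 15 samples were spleens of Bl/6 Taconic mice carrying acute promyelocytic leukaemia (APL), in which granulocyte precursors stop maturing at the promyelocyte stage, and each tumour had 1 array. The labels give no treatment, genotype or age, and no leukaemia-free spleen was analysed here, so each level is set against the other tumours only. The question was whether Thy1 followed the other T cell genes from tumour to tumour or varied on its own.

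Thy1 encodes a small glycoprotein that a lipid anchor holds in the outer membrane. In the mouse it covers thymocytes and mature T cells, and it is also found on neurons, on some fibroblasts and on some blood progenitors and NK cells. The CD3 chains assemble with the antigen-binding chains of the T cell receptor and carry its signal into the cell through tyrosine motifs. CD4 and CD8 bind the presenting molecule and bring the kinase Lck to the receptor. Cytotoxic T cells and NK cells store perforin, which opens pores in a target cell, and granzymes, proteases that act inside it. The interleukin 2 receptor beta chain, encoded by Il2rb, serves receptors for interleukin 2 and interleukin 15.

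A gene's value is its median log2 intensity over probesets, and errors are SDs over 15 tumours. Genes whose mean exceeded the 40th percentile of the 16299 named genes, a log2 intensity of 6.41, were called detected, and there were 9779 of them. Intensity also depends on probe affinity, so levels are compared between tumours. Genes are set against each other only through the common detection limit, and which genes pass it depends on probe affinity too. Median array intensity lay between 108 and 129, and arrays correlated at r = 0.928 to 0.978 across genes. The arrays of tumor_9509 and tumor_9514 were closer to each other (r = 0.964) than to the other 13 (0.949 at most), and selected results are also given without them. Separate animals are not named in the labels, so p-values cover the spread over these 15 arrays, which may be partly technical. In whole spleen, fewer cells of a type cannot be told apart from less RNA per cell.

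Of the 9 measured genes, 8 passed the detection limit. Cd4 did not, at 5.92 ± 0.18 (SD, n = 15), with all 15 tumours below the limit, although 2 of its 13 probesets lay above it, the brighter at a mean of 9.77. Cd8a, Prf1, Il2rb, Gzma and Cd3d passed on their means but were below the limit in 7, 5, 2, 3 and 1 tumours, where their values may be background. Of 13 measured transcription factor genes of the T lineage 10 were detected. Bcl11b, a factor of committed T cells, stood at 6.72 ± 0.22, and Tcf7, another T lineage factor, at 8.48 ± 0.39, while Gata3 (5.96 ± 0.26) and Lef1 (6.19 ± 0.17) lay below the limit. For NK cells, 1 of 16 measured receptor genes passed it, and that was Fcgr3 (9.67 ± 0.55), an Fc receptor gene that myeloid cells also express. The defining NK receptors Ncr1 (5.76 ± 0.61) and Klrb1c (4.77 ± 0.57) were below it on average, with Ncr1 highest at 6.96 in tumor_9508. Klrd1, another NK receptor gene, exceeded the limit in 7 of 15 tumours. Most of these receptor genes therefore stood below the limit on average, and some exceeded it in single tumours.

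**Figure D1:**
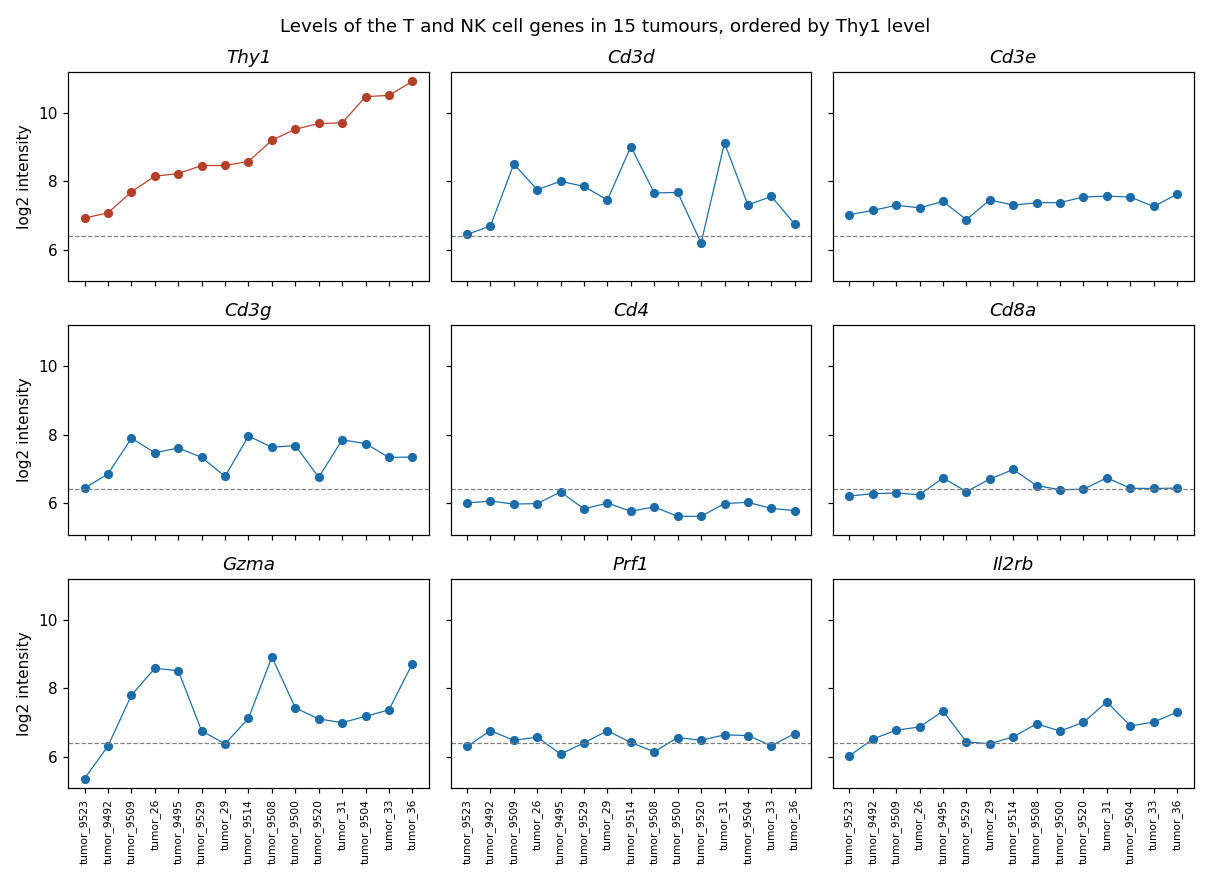
Log2 intensity (y axis) of the 9 measured genes in each of 15 tumours (x axis, ordered by Thy1 level in every panel); each point is 1 array, lines only join the points, and the dashed line is the detection limit of 6.41. Thy1 climbs from 6.93 to 10.92 across the panel by construction, while Cd3d has its highest values, 9.12 and 9.02, in tumor_31 and tumor_9514 and its lowest, 6.20, in tumor_9520.

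Thy1 had the widest range of the measured genes. Its lowest, median and highest log2 intensities were 6.93 in tumor_9523, 8.58 in tumor_9514 and 10.92 in tumor_36, a 16.0-fold span on the linear scale. The highest values after tumor_36 were 10.52 in tumor_33 and 10.48 in tumor_9504, then 9.71 in tumor_31, 9.69 in tumor_9520 and 9.52 in tumor_9500. The low end held tumor_9523, tumor_9492 at 7.08 and tumor_9509 at 7.70. The remaining 6 tumours lay between 8.15 and 9.21, and the sorted values formed no separate clusters. The SD of 1.23 ranked 43 among 9779 detected genes, whose median SD was 0.29. All 15 tumours were above the detection limit.

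The 8 Thy1 probesets agreed on this pattern. Each correlated with the gene value at r = 0.72 to 0.99, their mean pairwise r was 0.85, and the means of odd and even probesets correlated at 0.98 over the tumours. Single probesets had SDs between 0.52 and 1.59. No tumour had a second array here, so neighbours in the order of Thy1 levels could not be tested against each other.

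**Figure D2:**
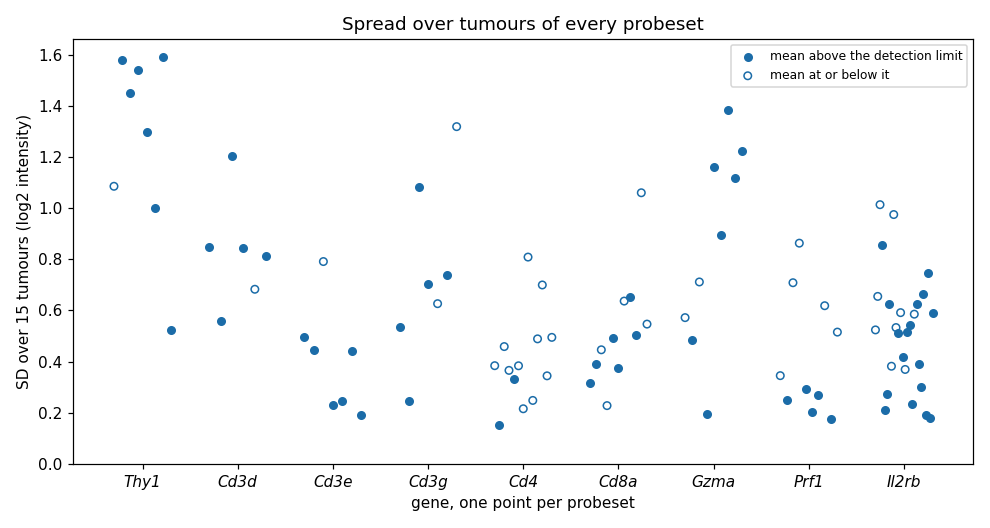
SD over 15 tumours (y axis, log2 intensity) of every probeset of the 9 measured genes (x axis), filled where the probeset mean is above the detection limit of 6.41 and open where it is not. Thy1 probesets reach SDs of up to 1.59, and those of Cd3e with a mean above the limit reach 0.50 at most.

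Cd3d and Cd3g encode the delta and gamma chains of CD3, and the Cd3e product pairs with each of them. The 3 genes lie side by side on chromosome 9. In the RefSeq annotation of GRCm38.p6 the start sites of Cd3g (minus strand) and Cd3d (plus strand) point away from each other and lie 1355 bp apart, and that of Cd3e (minus strand) lies 27825 bp beyond Cd3d. Their promoters are shown because the levels of Cd3d and Cd3g moved together in the results below while Cd3e differed. Each sequence runs from 250 bases before to 50 bases after the start site, read 5′ to 3′ on the gene's own strand, at chr9:44980382-44980681 (minus) for Cd3g, chr9:44981536-44981835 (plus) for Cd3d and chr9:45009562-45009861 (minus) for Cd3e. Capitals mark CACCTG, a 6-base E-box form, where it reads in this direction.
Cd3g: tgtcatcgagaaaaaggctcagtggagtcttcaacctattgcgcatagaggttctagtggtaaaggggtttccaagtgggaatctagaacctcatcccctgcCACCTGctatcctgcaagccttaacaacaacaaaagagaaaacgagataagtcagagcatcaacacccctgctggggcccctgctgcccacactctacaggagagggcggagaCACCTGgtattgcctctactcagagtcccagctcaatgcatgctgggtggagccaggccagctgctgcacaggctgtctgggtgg
Cd3d: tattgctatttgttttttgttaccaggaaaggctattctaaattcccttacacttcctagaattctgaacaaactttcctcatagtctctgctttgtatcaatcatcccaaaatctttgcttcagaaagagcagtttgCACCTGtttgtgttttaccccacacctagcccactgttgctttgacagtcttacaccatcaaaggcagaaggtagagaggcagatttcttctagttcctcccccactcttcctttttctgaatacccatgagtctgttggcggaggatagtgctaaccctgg
Cd3e: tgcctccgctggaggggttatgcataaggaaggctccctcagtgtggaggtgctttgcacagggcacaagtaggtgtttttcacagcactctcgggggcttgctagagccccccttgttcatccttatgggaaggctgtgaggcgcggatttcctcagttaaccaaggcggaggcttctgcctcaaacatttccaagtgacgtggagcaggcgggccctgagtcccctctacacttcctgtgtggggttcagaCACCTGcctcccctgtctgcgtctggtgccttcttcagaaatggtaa
On either strand CACCTG matched 2 times in the Cd3g window, 1 time in Cd3d and 1 time in Cd3e. It occurs in 20.2% of 32851 promoter windows of this length, and the looser CANNTG, which contains it, in 72.3%. AGGAAG, an ETS-like core, matched 0, 2 and 2 times in Cd3g, Cd3d and Cd3e and occurs in 35.4% of windows, and GGAA, which it contains, matched 2, 6 and 5 times and occurs in 96.0%. AGATAA (11.2% of windows) matched 1 time, in Cd3g. The other 5 of the 10 motifs searched on both strands had no match in these windows: TGTGGT (16.8% of windows), CCGGAAG (8.86%), TGACGTCA (1.79%), TATAAA (13.6%) and TGATAA (9.05%). A match describes the letters only. The marked motif was chosen after the matches were seen.

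Cd3d ranged from 6.20 in tumor_9520 through a median of 7.66 to 9.12 in tumor_31, with a mean of 7.60 ± 0.86. The high tumours were tumor_31, tumor_9514 at 9.02 and tumor_9509 at 8.51, and the low ones were tumor_9520, tumor_9523 at 6.45 and tumor_9492 at 6.70. Cd3g ranged from 6.44 in tumor_9523 through a median of 7.48 to 7.97 in tumor_9514, with a mean of 7.39 ± 0.47. Its high tumours were again tumor_9514, tumor_9509 (7.90) and tumor_31 (7.86). The 2 genes correlated at Pearson's r = 0.81 (permutation p = 0.00026) and Spearman's rho = 0.78 (permutation p = 0.00131). Without the 2 tumours farthest from the Cd3d median r was 0.77, without tumor_9509 and tumor_9514 it was 0.75, and within the 10 tumours with 4-digit numbers it was 0.88. All 42 pairs of a Cd3d with a Cd3g probeset correlated positively, with a median r of 0.72. In limma fits across all detected genes the adjusted p was 0.133 for Cd3d on Cd3g and 0.166 for Cd3g on Cd3d, so the pair did not pass the threshold of 0.05. Cd3d on Cd3g passed in limma with the mean over probesets (r = 0.89), with probesets above the 25th percentile, after quantile normalization, and without tumor_9504 or tumor_29. Over all alternatives its limma adjusted p lay between 0.0037 and 0.469.

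Cd3e had a narrow range, 6.88 in tumor_9529 through a median of 7.37 to 7.63 in tumor_36, with a mean of 7.34 ± 0.21, and 22.4% of detected genes had a smaller SD. Its 7 probesets disagreed with each other: their mean pairwise r was 0.12, and odd and even probesets correlated at 0.39. The r of Cd3e with Cd3d was 0.04, and negative without tumor_31, tumor_9523 or tumor_9492, and its r with Cd3g was 0.28, with 0.06 without tumor_9523 and 0.42 without tumor_9520. Cd247, the zeta chain gene of the same receptor, stood at 6.58 ± 0.24 and correlated at -0.11 with Cd3d, -0.21 with Cd3g and -0.09 with Thy1.

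Thy1 and Cd3d varied with an r near 0. Over 15 tumours r was -0.01 (permutation p = 0.978) and rho was -0.06 (permutation p = 0.831). In tumor_36 Thy1 had its highest value and Cd3d ranked 12 of 15. In tumor_9520 Thy1 ranked 5 and Cd3d was the lowest of all, and in tumor_9509 Thy1 ranked 13 and Cd3d 3. Of 48 pairs of a Thy1 with a Cd3d probeset, 26 correlated positively, with a median r of 0.02. Leaving out single tumours moved r between -0.21 and 0.14. It turned positive without tumor_9504, tumor_9495, tumor_9509, tumor_36, tumor_26, tumor_9514, tumor_9520 or tumor_9529. It was 0.15 without both tumor_9509 and tumor_9514, and 0.17 without the 2 tumours farthest from the Thy1 median. Of all 9778 other detected genes, 46.0% had a lower r with Thy1 than Cd3d had.

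With Cd3g, Thy1 had r = 0.33 (permutation p = 0.233) and rho = 0.19 (permutation p = 0.489), and without the 2 farthest tumours r was 0.43. Without tumor_9523, the lowest tumour for both genes, r was 0.11, and without tumor_9509 and tumor_9514 it was 0.53. With Cd3e, Thy1 had r = 0.66 (permutation p = 0.00647) and rho = 0.70 (permutation p = 0.00502), and r was 0.70 without the 2 farthest tumours. The gene value of Cd3e followed Thy1 more closely than any of its probesets did. Single Cd3e probesets correlated with the Thy1 gene value at 0.08 to 0.51, all 7 positively, and the span of Cd3e was 1.68-fold against 16.0-fold for Thy1.

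**Figure D3:**
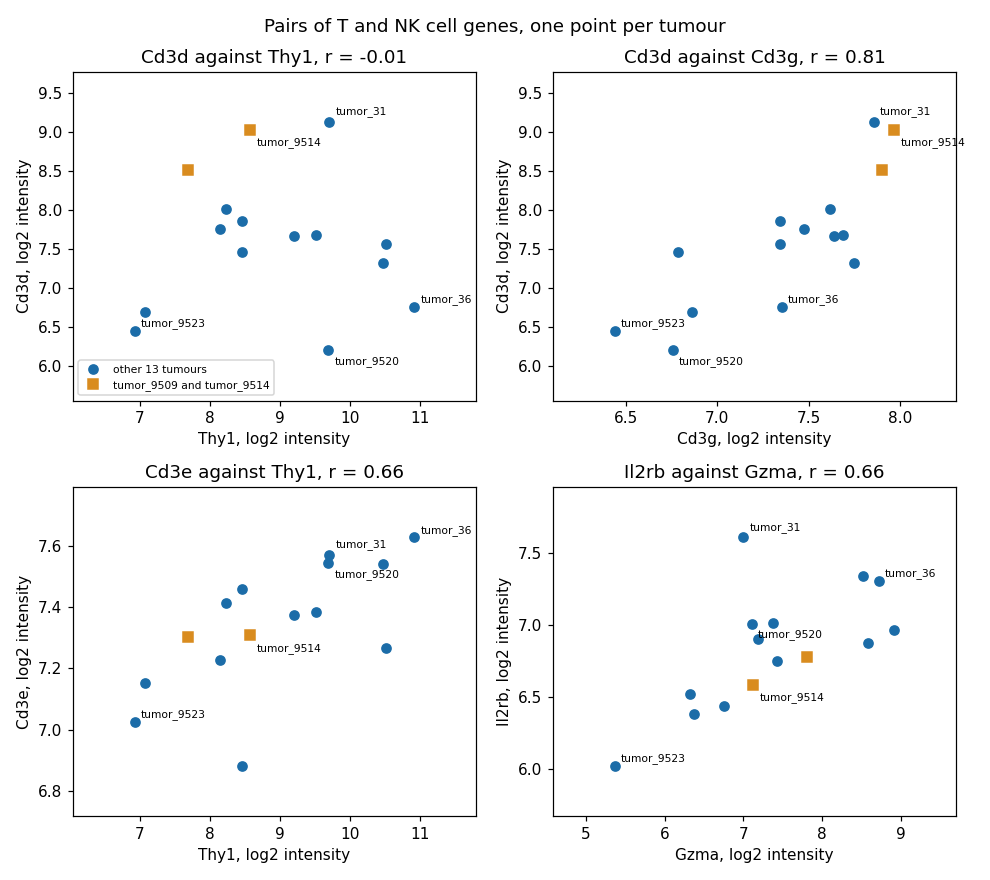
Log2 intensity of 1 gene against another in 15 tumours, 1 point per array, with tumor_9509 and tumor_9514 as orange squares. Cd3d has r = -0.01 against Thy1 and r = 0.81 against Cd3g; Cd3e against Thy1 and Il2rb against Gzma both have r = 0.66.

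Cd8a, the co-receptor of cytotoxic T cells, lay between 6.21 in tumor_9523 and 6.99 in tumor_9514, with a median of 6.43 and a mean of 6.48 ± 0.22. The tumours above 6.7 were tumor_9514, tumor_31 at 6.75, tumor_9495 at 6.74 and tumor_29 at 6.71, and 7 others were below the detection limit. Cd8a correlated with Cd3d at r = 0.60 (permutation p = 0.019), though with rho = 0.41 (permutation p = 0.125), and r lay between 0.45 (without tumor_9514) and 0.71 when single tumours were left out. With Thy1 its r was 0.21 (permutation p = 0.445) and its rho 0.53 (permutation p = 0.0442), and r was 0.08 without tumor_9523 and 0.34 without tumor_9514. Cd4 ranged from 5.62 in tumor_9500 to 6.33 in tumor_9495. Its 13 probesets had a mean pairwise r of -0.01, and its brightest had an r of -0.13 with the gene value. The r of Cd4 with Thy1 was -0.44 (permutation p = 0.1) and its rho -0.48 (permutation p = 0.0728).

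Gzma, the granzyme A gene, varied almost as widely as Thy1, with a lowest, median and highest value of 5.36 in tumor_9523, 7.18 in tumor_9504 and 8.92 in tumor_9508, and a mean of 7.37 ± 1.00. Its SD ranked 82 among 9779 genes, and was 0.67 with the mean over probesets in place of the median. The 4 tumours above 8 were tumor_9508, tumor_36 (8.72), tumor_26 (8.58) and tumor_9495 (8.52), which held Cd3d ranks of 8, 12, 6 and 4. Gzma correlated with Cd3g at r = 0.58 (permutation p = 0.0232), with rho = 0.46 (permutation p = 0.086), and this fell to 0.37 without the 2 tumours farthest from the Cd3g median. With Thy1 its r was 0.40 (permutation p = 0.138) and its rho 0.33 (permutation p = 0.231), and its r with Cd3d was 0.23. Without tumor_9523 these r values were 0.21 with Thy1 and 0.03 with Cd3d. Prf1, the perforin gene, stayed between 6.08 in tumor_9495 and 6.76 in tumor_9492, at 6.48 ± 0.21. Its 10 probesets had a mean pairwise r of 0.04, and its r was 0.12 with Thy1, about 0 without tumor_36, and -0.29 with Gzma.

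Il2rb ranged from 6.02 in tumor_9523 through a median of 6.87 to 7.61 in tumor_31, with a mean of 6.83 ± 0.41. Its high tumours were tumor_31, tumor_9495 at 7.33 and tumor_36 at 7.30, and tumor_9523 and tumor_29 were below the limit. Il2rb took part in 4 of the 8 pairs whose r had a permutation p under 0.05. Its r was 0.63 with Thy1 (permutation p = 0.0114, rho = 0.63, permutation p = 0.0145), 0.70 with Cd3e (permutation p = 0.00363), 0.66 with Gzma (permutation p = 0.00704) and 0.53 with Cd3g (permutation p = 0.0422). With Cd3e, Gzma and Cd3g its rho was 0.64 (permutation p = 0.0125), 0.59 (permutation p = 0.0239) and 0.31 (permutation p = 0.262). Without the 2 farthest tumours of the other gene the 4 r values were 0.57, 0.55, 0.55 and 0.43. Without tumor_9523 the r of Il2rb with Cd3g was 0.32. Of 208 pairs of a Thy1 with an Il2rb probeset, 192 correlated positively, with a median r of 0.37. Il15ra, which encodes the interleukin 15 receptor alpha chain that partners Il2rb, had r = 0.64 with Thy1, Il2rg, the common gamma chain gene, -0.07 and the ligand gene Il15 -0.08. The list of these receptors had 8 detected genes: Il2rb, Il2rg, Il15ra, the ligand gene Il15, and the signalling genes Jak1, Jak3, Stat5a and Stat5b. Of the 8, 6 correlated positively with Thy1 (median r 0.08), where 5170 of 9778 genes did. Jak1, Jak3, Stat5a and Stat5b were among the 6, at r = 0.04 to 0.11. With Cd3g and Cd3e, Il15ra had r = 0.43 and 0.51.

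**Figure D4:**
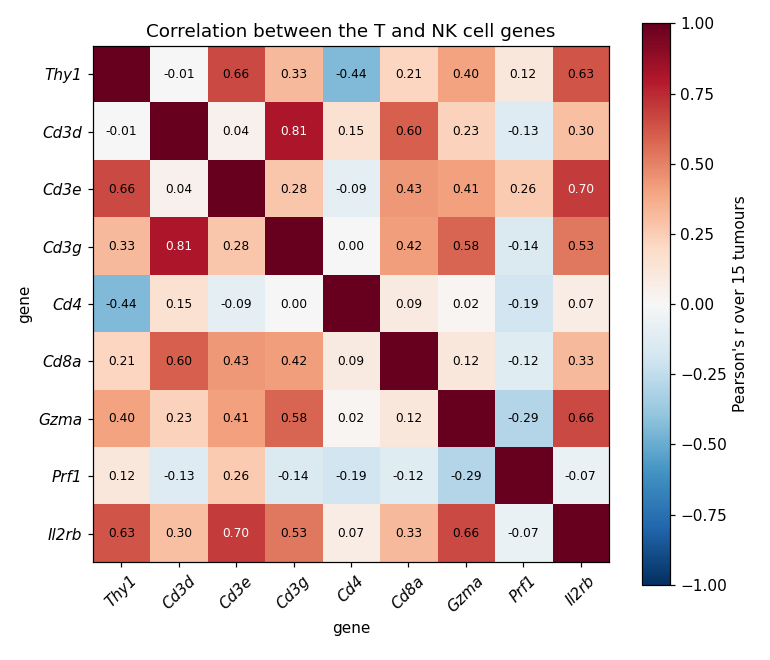
Pearson's r over 15 tumours between the 9 measured genes (both axes), with the value in each square and colour from blue (-1) to red (1). The r of Thy1 runs from -0.44 with Cd4 to 0.66 with Cd3e, and the highest r off the diagonal is 0.81 between Cd3d and Cd3g.

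Of 36 pairs among the 9 genes, 8 had a permutation p under 0.05 for r and 7 for rho, and all 8 were positive. By r, Thy1 took part in 2 of them, out of its 8 pairs, against 6 of the 28 pairs without Thy1. By rho, Thy1 passed with Cd3e, Il2rb and Cd8a. Cd3e with Cd8a also passed by rho alone (rho = 0.65, permutation p = 0.0106). Cd3d with Cd8a, Cd3g with Gzma and Cd3g with Il2rb passed by r alone. The share over all gene pairs was not computed. None of the 36 pairs had a limma adjusted p under 0.05 over all genes, and the smallest was 0.133. In tumor_9523 5 of the 9 genes were at their lowest, namely Thy1, Cd3g, Cd8a, Gzma and Il2rb. Of the 8 pairs that passed by r, 6 had their smallest leave-one-out r without this tumour.

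Each gene was then set against all genes on the array, with its log2 intensity as the covariate in limma. At an adjusted p under 0.05, 0 of the 7 detected list genes followed Thy1, where 0.0102% of all 9778 genes did so in the higher direction and 0 in the lower. Adjusted p-values of the 7 in limma ran from 0.776 (Il2rb) to 0.999 (Cd3d). At limma's unadjusted p under 0.05, 2 of the 7 followed Thy1 upward, Cd3e and Il2rb, where 2.82% of all genes did. On Cd3g it was 3 of 7 (Cd3d, Gzma and Il2rb) against 2.78%, on Cd3d 2 of 7 (Cd3g and Cd8a) against 4%, on Cd3e 2 of 7 (Thy1 and Il2rb) against 2.58%, and on Il2rb 4 of 7 (Thy1, Cd3e, Cd3g and Gzma) against 3.86%. On Gzma it was 2 of 7 (Cd3g and Il2rb) against 2.13%, on Cd8a 1 of 7 (Cd3d) against 1.5%, on Prf1 0 of 7 against 2.39%, and on Cd4 0 of 8 against 0.593%. In the lower direction at limma's unadjusted p under 0.05 the list genes gave 0 in each of these 9 fits. Of all genes, 1.95% did so on Thy1, 8.13% on Cd3d, 2.79% on Cd3e, 10.6% on Cd3g, 0.348% on Cd4, 2.14% on Cd8a, 3.12% on Gzma, 1.43% on Prf1 and 1.57% on Il2rb. By rank, Cd3e had a higher r with Thy1 than 99.6% of genes, Il2rb than 99.3%, Gzma than 92.9%, Cd3g than 88.0%, Cd8a than 76.8% and Prf1 than 64.0%. Ranked by r with Cd3g among 9778 genes, Cd3d came 3, Gzma 161, Il2rb 254, Cd8a 540, Thy1 969, Cd3e 1243 and Prf1 4911. Thy1 had a higher r with Cd3g than 90.1% of genes, and Cd3e than 87.3%. By r with Cd3e, Thy1 came 29, Cd3g 1619 and Cd3d 4334.

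**Figure D5:**
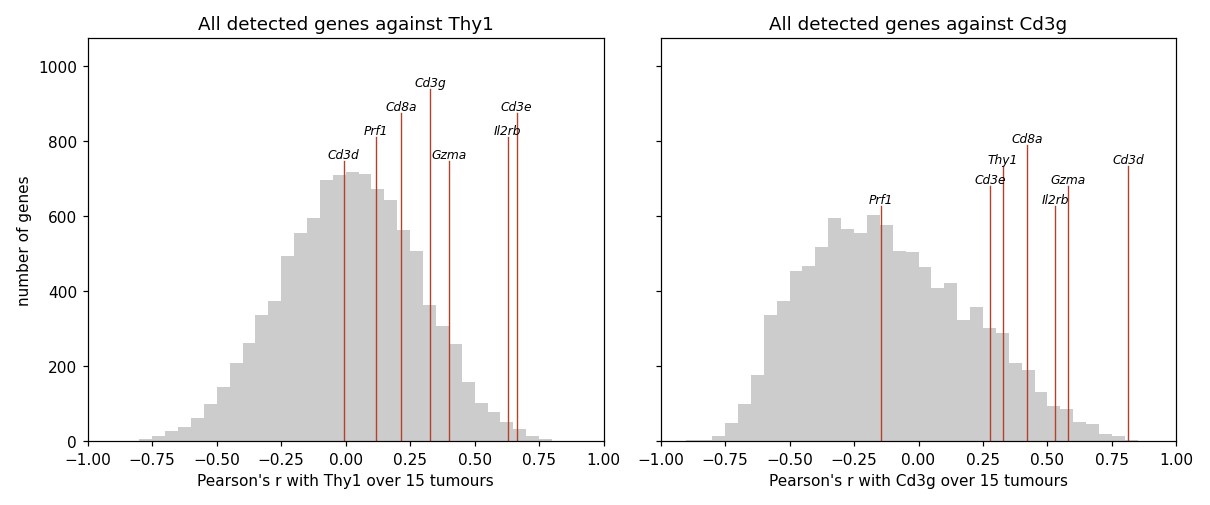
Number of detected genes (y axis) by Pearson's r over 15 tumours (x axis) with Thy1 (left) and with Cd3g (right), with red lines at the other detected genes of the list. On the left Cd3d stands at -0.01 and Il2rb and Cd3e at 0.63 and 0.66; on the right Cd3d stands alone at 0.81.

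To separate Thy1 from the T cell receptor, both were entered in 1 limma fit. Cd3e and Cd3g tied as the Cd3 gene with the most probesets (7 each), and both were fitted. With Thy1 held, 2 of 9777 genes followed Cd3g at an adjusted p under 0.05 (0.0205%), both upward. They were Cd3d, with a slope of 1.67 ± 0.26 (SE) log2 units per unit of Cd3g and a limma adjusted p of 0.0314, and Ccl5. At limma's unadjusted p under 0.05, 3.11% of genes followed Cd3g upward and 12% downward. The count of 2 became 0 without both tumor_9509 and tumor_9514. It was also 0 when 1 tumour was left out in 10 of 15 runs, namely tumor_9495, tumor_9523, tumor_9509, tumor_9492, tumor_36, tumor_26, tumor_9514, tumor_9520, tumor_9508 or tumor_33. With Cd3g held, 0 genes followed Thy1 in limma at an adjusted p under 0.05, and 422 higher (4.32%) and 206 lower (2.11%) did at an unadjusted p under 0.05. The slope of Cd3d on Thy1 was then -0.21 ± 0.10 (SE) with a limma adjusted p of 0.764, that of Cd3e 0.11 ± 0.05 with 0.740, and that of Il2rb 0.17 ± 0.07 with 0.702. With Cd3e as partner, 0 genes followed either gene in limma at an adjusted p under 0.05. At an unadjusted p under 0.05, 205 higher (2.1%) and 150 lower (1.53%) followed Thy1, and 173 higher (1.77%) and 209 lower (2.14%) followed Cd3e. Whether the r of Thy1 with Cd3d differs from that of Cd3g with Cd3d was not tested.

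The 1 gene that followed Thy1 over all 9778 genes was Mt2, which encodes a metallothionein, a small metal-binding protein. Mt2 stood at 10.21 ± 0.97. Its lowest values were 8.80 in tumor_9492, 8.87 in tumor_29 and 8.96 in tumor_9523, which ranked 14, 9 and 15 for Thy1. Its highest were 11.55 in tumor_9504, 11.54 in tumor_36 and 11.29 in tumor_9508, which ranked 3, 1 and 7. Its slope was 0.68 ± 0.10 (SE) log2 units per unit of Thy1, with r = 0.86 and a limma adjusted p of 0.0442. Its r was 0.85 without tumor_9509 and tumor_9514. With other list genes Mt2 had r = 0.68 (Il2rb), 0.66 (Cd3e), 0.58 (Gzma), 0.50 (Cd3g) and 0.09 (Cd3d). The r of Mt2 with Cd3g was 0.66 without tumor_9509 and tumor_9514. The call was marginal: 0 genes passed with the mean over probesets, with no filter on dim genes, without tumor_9509 and tumor_9514, or in 9 of 15 runs without 1 tumour (tumor_9504, tumor_31, tumor_9495, tumor_9523, tumor_9500, tumor_9509, tumor_9492, tumor_9520 or tumor_9529), and 2 passed without tumor_29 or tumor_9514. Next by r came Antxr2, an anthrax toxin receptor gene (0.84, limma adjusted p = 0.067), the death receptor gene Fas (0.77), Lipo3 (0.76), Ces2g, a carboxylesterase gene (0.75), Smpdl3a (0.75), Fyb, an adaptor of T cell and myeloid cells (0.74), Rchy1 (0.74), Tpd52 (0.73) and the selenium carrier gene Selenop (0.73). None of these 9 is on the lists of T cell genes used here. The lowest r with Thy1 was that of Ctdspl2 (-0.80), followed by the receptor kinase gene Tgfbr1 (-0.78), Cela1, Cse1l and Zfp770 (-0.76 each).

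The 1 gene that followed Cd3g over all 9778 genes was Ccl5, which encodes a chemokine of activated T cells and NK cells, with a slope of 1.57 ± 0.22 (SE), r = 0.88 and a limma adjusted p of 0.0128. Ccl5 stood at 9.85 ± 0.84, from 7.53 in tumor_9523 to 11.04 in tumor_9514, and its r with Thy1 was 0.45. Without tumor_9509 and tumor_9514 its r was 0.88 with Cd3g and 0.60 with Thy1. The count of genes was 0 without tumor_9523, without tumor_9514 or without both tumor_9509 and tumor_9514, 2 without tumor_9504, 3 without tumor_29, and 88 higher with 206 lower after quantile normalization of the gene values, against 1 and 0 as deposited. After Ccl5 came Rnase6 (0.82), Cd3d (0.81), the thrombin receptor gene F2r (0.81), Tmem179b (0.80), S100a11 (0.80), the lymphocyte GTPase gene Gimap4 (0.79), B2m, which encodes the light chain of class I molecules (0.78), Tmem128 (0.77) and Pla2g2c (0.76). No gene followed Cd3e in limma at an adjusted p under 0.05 (252 higher and 273 lower at an unadjusted p under 0.05), and its highest r values were those of Mfsd6 (0.79), the receptor gene Tlr2 (0.78), the cyclooxygenase gene Ptgs1 and Mmab (0.77 each), Slc25a22 (0.74), Lhfpl2 (0.72), Lrch4 (0.71), and Apobr, Il2rb and Tcirg1 (0.70 each). For Gzma the count was also 0 in limma (208 higher and 305 lower at an unadjusted p under 0.05). Its highest r values were those of Tmem179b (0.86), Cd7, a surface gene of T and NK cells (0.86), Uqcc3 (0.81), its fellow granzyme gene Gzmb (0.80) and the lens protein gene Lim2 (0.78).

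In the wider T cell lists, 0 of 37 detected genes followed Thy1 at a limma adjusted p under 0.05, where 0.0102% of all genes did upward. At an unadjusted p under 0.05, 2 did upward, Cd3e and Lcp2, where 2.82% of all genes did. Of 6 detected genes of the receptor complex and co-receptors, 4 correlated positively with Thy1, with a median r of 0.15, where the median over all genes was 0.02. For the 9 detected receptor signalling genes the median was 0.11, with Lcp2, an adaptor gene, at 0.55, the kinase gene Zap70 at 0.24 and the phospholipase gene Plcg1 at -0.54. For the 6 other surface genes it was 0.20, from Cd6 at 0.29 and Cd2 at 0.27 to the chemokine receptor gene Cxcr6 at -0.09. For the 10 T lineage transcription factors it was 0.07, from Tox at 0.38 and Tcf7 at 0.20 to Foxp3, the factor gene of regulatory T cells, at -0.10. For the 6 thymocyte genes it was 0.09, from Ptcra, the pre-T cell receptor chain gene, at 0.33 and Hes1 at 0.21 to Notch3 at -0.38. The same lists had medians of 0.29, 0.02, 0.23, 0.09 and -0.08 with Cd3g, where the median over all genes was -0.14. Cd2, an adhesion gene of T and NK cells, had r = 0.74 with Cd3g and 0.84 with Cd3d. Tox had r = 0.66 and Id2, a factor gene of NK and other innate cells, 0.64 with Cd3g. The highest r values with Cd3g were lower in the signalling list (Lat 0.34, Ptpn22 0.21) and the thymocyte list (Dtx1 0.27, Hes1 0.06). Cd8a had r = 0.42 with Cd3g and 0.43 with Cd3e. With Cd3e, r was 0.28 for Lcp2, 0.17 for Zap70, 0.32 for Cd2, 0.47 for Zbtb7b and 0.33 for Tox. It was 0.35 for Dtx1 and 0.26 for Notch1.

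Of the 11 detected cytotoxic genes, 7 correlated positively with Thy1 (median 0.13) and 8 with Cd3g (median 0.22), and Ccl5 was the 1 called with Cd3g. Over all 9778 detected genes, 5170 were positive with Thy1 and 3395 with Cd3g. Gzmb had r = 0.42 with Thy1, Nkg7 -0.53, and Gzmm 0.67 with Cd3g. With Cd3e, Gzma had r = 0.41 and Xcl1 0.38. Nkg7 stood at 11.49 ± 0.61 and is not limited to lymphocytes. Among NK receptor genes with a mean below the detection limit, Klrd1 (6.32 ± 0.95) ranged from 4.91 in tumor_9492 to 7.69 in tumor_9495. It was above the limit in 7 tumours and below it in 8. Its r was 0.70 with Il2rb, 0.68 with Cd3g, 0.61 with Gzma and 0.47 with Thy1. Of the 16 measured NK receptor genes, 14 correlated positively with Gzma, 14 with Cd3g and 14 with Thy1. Among 9778 detected genes, 4037, 3395 and 5170 did. Only 1 of the 16 is a detected gene, and the shares among genes below the limit were not computed. The counts of 14 therefore have no like share beside them. The highest r values with Gzma were those of Klra7 (0.76), Klre1 (0.73), Klrk1 (0.69) and Ncr1 (0.69), all with means below the limit.

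Genes of other cell types were set against Cd3d and Thy1 in the same way; the difference between the 2 was not tested, nor was the part of these cells in the results above. All 13 detected genes of the secondary granule and mature neutrophil list correlated positively with Cd3d (median r 0.42), and 5 of them with Thy1 (median -0.10), where 3530 and 5170 of 9778 genes did. All 7 detected B cell genes correlated positively with Cd3d (median 0.46) and 5 with Thy1 (median 0.06), from Blk (0.36) and Blnk (0.33) to Pax5 (-0.43). The other list genes differed from Cd3d here. Of the 13 neutrophil genes, 7 were positive with Cd3e (median 0.03), 12 with Cd3g (0.23), 4 with Gzma (-0.24) and 8 with Il2rb (0.08). Of the 7 B cell genes, 4, 6, 4 and 4 were positive with these genes. Over all 9778 genes it was 4923, 3395, 4037 and 5486. S100a8 had r = 0.80 and the B cell receptor gene Cd79a r = 0.74 with Cd3d, against 0.15 and 0.06 with Thy1. S100a8 varied little, from 12.63 to 13.03 with an SD of 0.12. In the neutrophil list Cxcr2 had r = 0.39 with Cd3d and 0.23 with Thy1, and Camp 0.46 and -0.30. None of these passed in limma at an adjusted p under 0.05. Thy1 is also a fibroblast gene, and 6 of 10 detected stromal genes correlated positively with it (median 0.01), from Acta2 (0.40) and Fn1 (0.35) down to the matrix gene Postn (-0.63, limma adjusted p = 0.642). For stem and progenitor genes 2 of 9 were positive (median -0.17), with Sox4 at 0.23, Tal1 at 0.09 and Kit at -0.34. For cell cycle genes 1 of 9 was positive (median -0.28), with Cdk1 at 0.12, Plk1 at -0.03 and Pcna at -0.51. For erythroid genes 0 of 5 were positive (median -0.36), from Tfrc (-0.23) and Epor (-0.25) to Hbb-b1 (-0.56). The medians with Thy1 were -0.06 over 7 plasmacytoid dendritic cell genes (Irf8 0.46, Runx2 0.34, Klk1 -0.29) and 0.06 over 9 primary granule genes (Prtn3 0.46, Ms4a3 0.29, Calr -0.36). They were -0.16 over 3 endothelial genes (Pecam1 -0.06, Vwf -0.16, Egfl7 -0.23) and -0.19 over 6 genes of eosinophils, basophils and mast cells (Epx 0.14, Prg3 -0.14, Mcpt8 -0.27). With Cd3d the medians were -0.20 for stromal, -0.17 for stem and progenitor, -0.26 for cell cycle and 0.23 for erythroid genes. For the last 4 lists, in the order above, they were -0.05, -0.07, -0.27 and -0.07. Over all genes the median was -0.12 with Cd3d and 0.02 with Thy1.

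Thy1 lies on chromosome 9, as do the 3 Cd3 genes, which are 55 to 57 genes away from it in the order of the GRCm38.p6 gene table. Its measured neighbours had smaller SDs, from 0.16 (Nectin1) to 0.39 (Cbl). On one side Oaf had r = -0.64 with Thy1, Trim29 0.19 and Nectin1, below the detection limit, -0.44. On the other Usp2 had r = 0.06, Rnf26 -0.50 and Mcam 0.34. Of 20 genes within 10 places on either side, 5 were measured and 4 detected, with r values from -0.50 to 0.34 and a median of 0.06.

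Tumour numbers have 4 digits in 10 tumours and 2 digits in 5, the only label that could mark a batch. Thy1 averaged 8.59 ± 1.16 (SD, n = 10) in 4-digit and 9.55 ± 1.22 (SD, n = 5) in 2-digit tumours, a difference of -0.97 ± 0.57 (SE) with a limma adjusted p of 1.000. Cd3d averaged 7.54 ± 0.90 in 4-digit and 7.73 ± 0.87 in 2-digit tumours, a difference of -0.19 ± 0.43 (SE), which was -0.50 ± 0.37 (SE) without tumor_9509 and tumor_9514 (7.23 ± 0.69 in the 8 remaining 4-digit tumours). Gzma averaged 7.25 ± 1.02 in 4-digit and 7.61 ± 1.02 in 2-digit tumours. No gene differed between the numberings in limma at an adjusted p under 0.05, and 227 of 9779 (2.32%) did at an unadjusted p under 0.05. Within the 4-digit tumours the r of Thy1 was 0.03 with Cd3d, 0.69 with Cd3e, 0.41 with Cd3g and 0.55 with Il2rb. No correlation was computed within the 2-digit group of 5 tumours.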

How the data were processed

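RNA of 15 leukaemic spleens was read on Affymetrix Mouse Exon 1.0 ST arrays after amplification and biotin labelling, per the labels' protocols. The authors deposited 1 linear intensity per probeset and array (2.38 to 19380.5), and the submitters' processing notes name RMA and mm9. Scanner files and scan dates were not analysed here. The log2 of each deposited intensity was taken here. Of 229581 probesets, the 208397 with a single symbol in the platform annotation were used, and 3965 with several and 17219 with none were not. The GRCm38.p6 gene table held 14132 of the 16299 symbols as current names and 2099 as older ones, and 68 were kept unmatched. Its build differs from mm9, so it gave names and gene order only. Promoters are RefSeq windows of GRCm38.p6; 7 of the 10 genes matched. The number of arrays limits the precision.

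Genes following another were tested with limma (lmFit, eBayes) with that gene's log2 value as covariate over all 15 tumours and Benjamini-Hochberg adjustment over all detected genes. Each pair had a two-sided permutation test with 100000 resamples. The list genes, marker lists and tests were chosen with earlier results of these data known. Named were the list genes and, among detected genes of 3 or more probesets, the 10 highest and 5 lowest by r with Thy1. The 10 highest with Cd3e, the 10 highest with Cd3g and the 5 highest with Gzma were also named. Cd3d was fitted too, but its 10 highest are not listed. Per marker list the 2 highest and 1 lowest with Thy1 were named and, for T and NK lists, the 2 highest with Cd3e and with Cd3g. The last were 3 measured neighbours on each side of Thy1. Cd79a, Klrd1, Klra7, Klre1, Klrk1, Ncr1, Klrb1c, Gata3, Lef1, Bcl11b and Il2rg, and Cd2 and S100a8 with Cd3d, were named after their values were seen. On simulated data for the Thy1 fit (9779 genes), limma recovered 23% of 100 genes with a true r of 0.7 and 90% of 100 with 0.9, with 5 other calls. Both sets of 100 were planted in the same run among independent genes, so the adjusted threshold there was looser than in the data. In the data Antxr2, at r = 0.84, did not pass (limma adjusted p = 0.067). The recovery therefore does not measure the power of the Thy1 fit on the data. Alternatives were means in place of medians over probesets, a filter on dim genes at the 60th percentile or none, only probesets brighter than the 25th percentile, arrays centred or quantile normalized, subsets of tumours, the digits of the tumour number as covariate, and ranks. The versions were limma 3.58.1 in R 4.3.3, and pandas 2.3.3, numpy 2.4.6 and matplotlib 3.10.9 in Python 3.11.15.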

Additional observations from a re-analysis of the deposited data

How the results depend on the processing

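The number of genes that followed Thy1 upward, 1 as reported, was 0 with the mean over probesets, no filter on dim genes, without tumor_9509 and tumor_9514, in 4-digit tumours alone, with the number of digits as covariate, with ranks of Thy1 and without the 2 farthest tumours, and 0 to 2 when single tumours were left out; downward it was 1 instead of 0 without tumor_9509 and tumor_9514. For Cd3g, 1 upward as reported, it was 6 with the mean over probesets, 3 with no filter, 2 with probesets above the 25th percentile, 88 after quantile normalization, and 0 when tumor_9509 and tumor_9514 were dropped, in 4-digit tumours alone or without the 2 farthest, and 0 to 3 with single tumours left out. Downward it was 206 after quantile normalization and 0 to 2 with single tumours left out. For Cd3e, 1 gene passed downward after quantile normalization. With Thy1 held, the 2 genes following Cd3g upward became 6 with the mean over probesets, 121 after quantile normalization, 1 in 4-digit tumours alone and with ranks, 0 without tumor_9509 and tumor_9514, without the 2 farthest and with Cd3d in place of Cd3g (chosen after seeing the data), and 0 to 3 with single tumours left out; downward there were 239 after quantile normalization and 0 to 1 with single tumours left out. With Cd3g held, 1 gene followed Thy1 upward with the mean over probesets. The causes were not tested.

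The r of Cd3d with Thy1, -0.01, changed sign to 0.0183 with the mean over probesets, 0.15 without tumor_9509 and tumor_9514, 0.0318 in 4-digit tumours alone, 0.0232 with ranks and 0.17 without the 2 farthest, and ran from -0.21 to 0.14 with single tumours left out. That of Prf1 was -0.20 with Thy1 and 0.61 with Cd3g with probesets above the 25th percentile, and -0.0021 to 0.32 with Thy1 with single tumours left out. That of Cd3d with Cd3e was -0.0014 in 4-digit tumours alone, -0.13 without the 2 farthest and -0.13 to 0.19 with single tumours left out. The SD of Cd8a was 0.35 with probesets above the 25th percentile. Of 963 alternative values, 882 kept their direction and side of the threshold or, for counts and levels, moved little, 55 moved further, 21 changed sign and 5 passed the threshold where the reported value did not. The 882 include counts of 0 that stayed 0 and r values that never neared the threshold. Pairs among Thy1, Cd3e and Cd3g entered in both directions, and the runs without single tumours overlap. The tally is therefore no measure of how stable the results are. Dim genes near the detection limit (such as Cd4, Cd8a, Prf1, Cd247, Cxcr6 and Tox) limit what can be read from their r. No paired analysis was possible because all tumours form 1 group and their numbers pair no samples.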
